A study of Mus musculus with 2 samples.

Results

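The cell cycle genes of the mouse hippocampus were taken as all annotated genes whose symbol follows a naming rule. The rule covers cyclins of the A, B, D and E types, numbered cyclin-dependent kinases (CDKs), CDK inhibitors of the Cdkn1 and Cdkn2 families, MCM helicase genes, numbered Cdc genes, E2F transcription factors, Aurora and Polo-like kinases, and Bub1, Bub1b, Mki67, Top2a, Birc5 and Pcna. It matched 87 of 55536 annotated genes, all 87 of them protein-coding, and used no measured value. Total RNA was sequenced from the hippocampus (the labels say a layer) of B6CASTF1/J mice, an F1 hybrid strain. The animals were males of 25 days, and the labels name no treatment. There was 1 group of 2 biological replicates, each a library made from 300 ng with added ERCC spike-ins, so no condition was compared and no test was made. Both replicates carry the same donor identifier in the labels, and whether they came from separate animals is not settled, so the spread between them may be technical.

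Cyclins bind and activate CDKs, and the order in which the cyclins appear drives a cell from growth into DNA replication and then mitosis. D-type cyclins with CDK4 and CDK6 release E2F factors from the retinoblastoma protein, cyclins E and A with CDK2 start and sustain replication, and cyclin B with CDK1 starts mitosis, while CDK inhibitors hold these kinases back. Neurons leave the cycle for good, and in the young rodent hippocampus division goes on in the progenitors of the dentate gyrus and in glial precursors. Several genes with cell cycle names were named in yeast or by likeness in sequence and serve transcription, signalling or the cytoskeleton instead.

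Annotated genes had 30635891 expected counts in the library of replicate 1 and 35713471 in that of replicate 2, and the 87 genes took 0.228% and 0.234% of them. An expected count is a read count in which reads that match several genes are shared out by a model. Levels are in transcripts-per-million (TPM), which divides counts by transcript length and so allows genes to be compared with each other. Paired values below are replicate 1 and then replicate 2, and TPM and ranks are those of the gene table, laid out as by the program RSEM, unless kallisto is named. Markers of neurons had a median of 424 TPM, of astrocytes 111 TPM and of oligodendrocytes 497 TPM. Of 6 markers of neural progenitors and immature neurons 5 reached 1 TPM, and the 4 markers of oligodendrocyte precursors lay between 9.40 and 72.0 TPM. The intermediate progenitor gene Eomes stood at 0.57 and 0.69 TPM. In bulk tissue, fewer cells of a type and less RNA per cell cannot be told apart.

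Most cell cycle genes reached 1 TPM, and levels differed between sets of genes. The sets were drawn up with earlier results of these data known, so differences between them are descriptions only. Of the 87 genes, 63 (72.4%) reached a mean of 1 TPM, against 58.9% of all protein-coding genes, and 33 (37.9%) reached 10 TPM, against 36.8%. The share at 10 TPM was thus near the background. The median of the 87 was 3.105 TPM, against 3.42 TPM over all protein-coding genes. The 21 genes with a known function outside cell division included 20 at or above 1 TPM and 18 at or above 10 TPM, Cdk15 being the one below 1 TPM. Of the 33 genes of a proliferation core, those known to be switched on for replication or mitosis, 16 reached 1 TPM and 1, Pcna, reached 10 TPM. The other 33 genes belonged to neither set and lay in between, with 27 at or above 1 TPM, 14 at or above 10 TPM and a range of 0.005 to 64.0 TPM, among them the D-type cyclins, the CDK inhibitors and subunits of the anaphase-promoting complex.

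Set medians of log2(mean TPM + 0.1) were 4.78 for the functions outside division and -0.01 for the core, a difference of 4.79. Within each library that difference was 4.98 in replicate 1 and 4.43 in replicate 2 (SD 0.38, n = 2). Over all 87 genes the median was 1.68, and over all protein-coding genes 1.82. Summed levels were 948 and 978 TPM for the functions outside division, 66.2% and 66.8% of the TPM of the 87 genes. The core summed to 75.8 and 75.7 TPM, or 5.29% and 5.17%. Bub1b (0.87 and 1.19 TPM) and Cdc45 (0.71 and 1.34 TPM) lay just inside 1 TPM, and Plk1 (0.90 and 0.88 TPM) and Cdkn2b (0.82 and 0.89 TPM) just outside it. At 10 TPM the nearest were Cdk18 (10.9 and 11.4 TPM) and E2f3 (10.9 and 11.1 TPM) inside, and Cdc25b (11.3 and 7.52 TPM) and Mcm6 (7.44 and 6.91 TPM) outside.

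**Figure D1:**
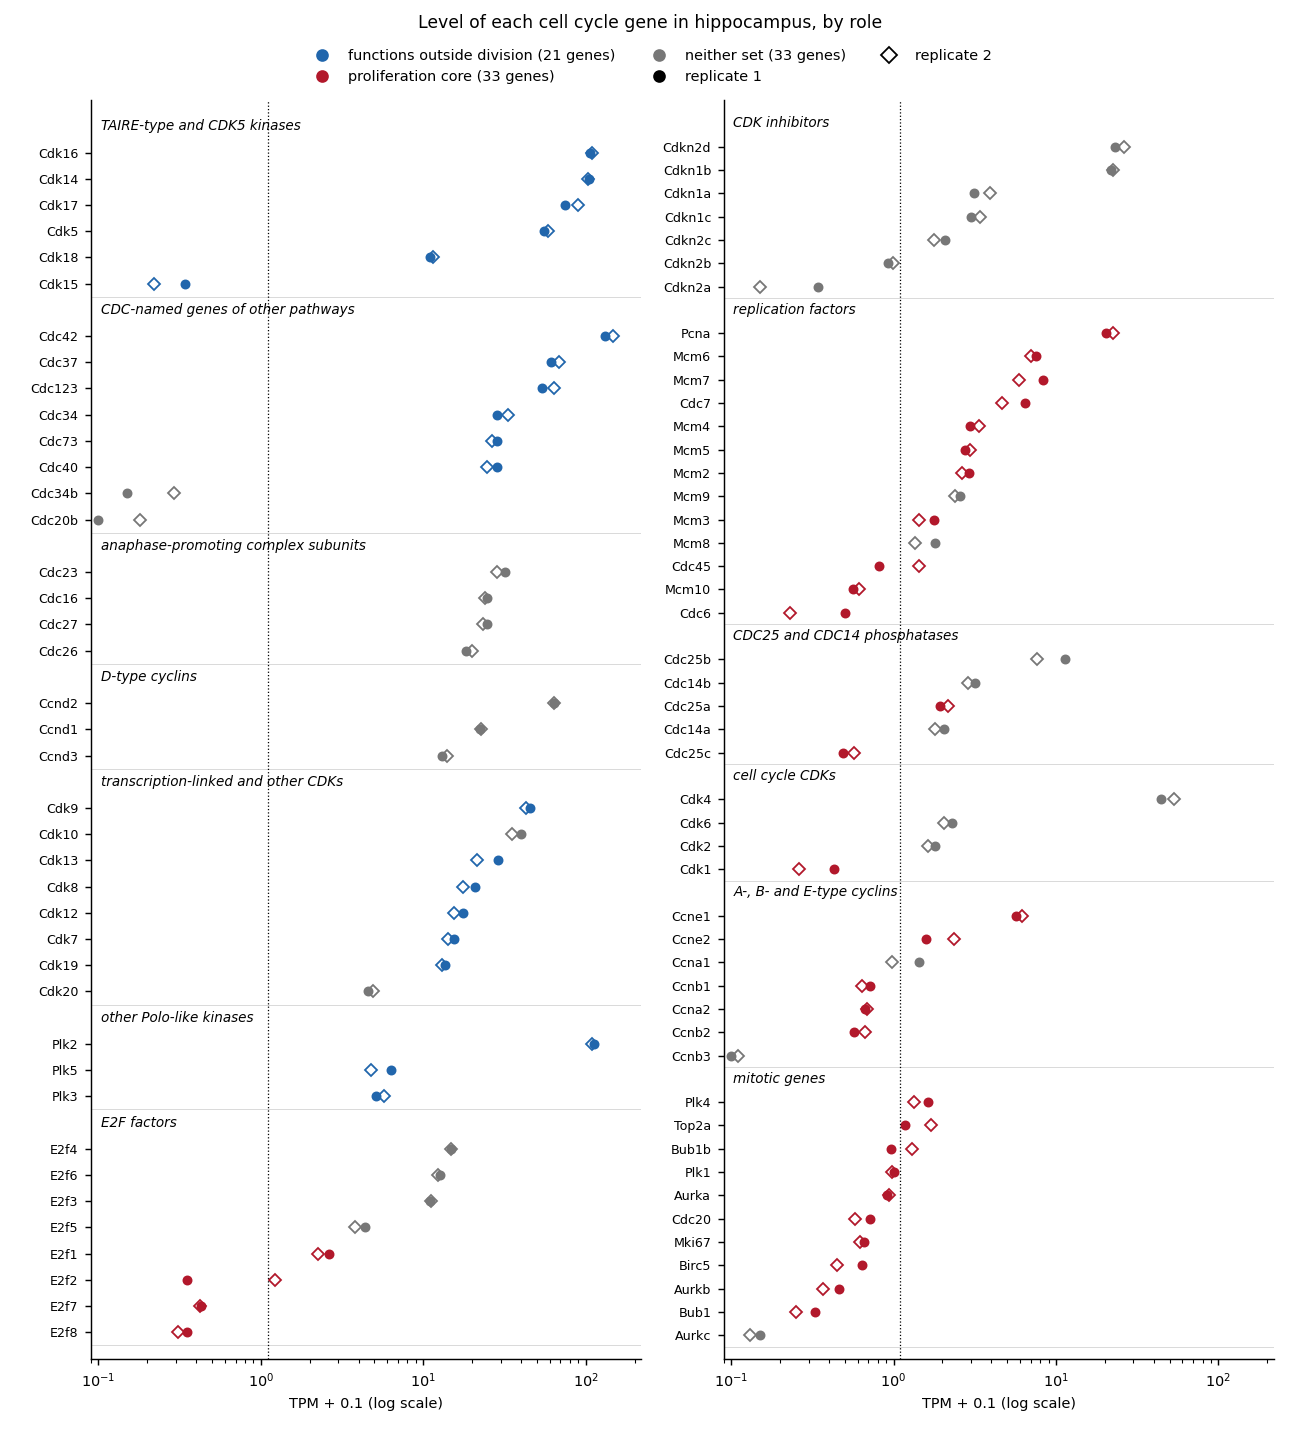
TPM + 0.1 of each of the 87 genes on a log axis, grouped by role, with filled circles for replicate 1 and open diamonds for replicate 2; colour marks the set and the dotted line stands at 1 TPM. Cdc42, Plk2, Cdk16 and Cdk14 lie farthest right, with means between 104 and 139 TPM, while 8 of 11 mitotic genes have a mean below 1 TPM in RSEM.

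**Figure D2:**
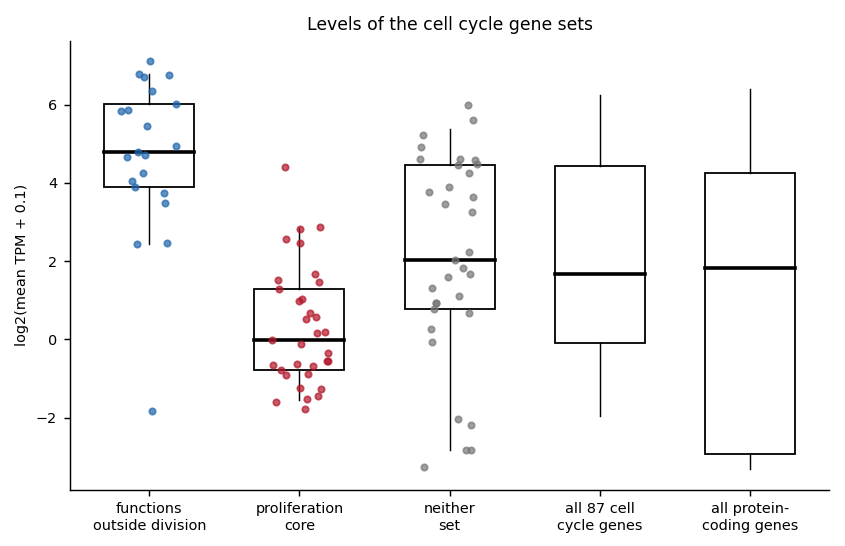
log2(mean TPM + 0.1) for the 3 sets, all 87 genes and all 22028 protein-coding genes. Boxes span the middle 50% of genes with the median as a bar, whiskers reach the 5th and 95th percentiles, and points are single genes; the median of the functions outside division is 4.78 and that of the core -0.01.

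Genes of mitosis stood at low levels. Cdk1, the kinase that starts mitosis (chromosome 10, 69335146 to 69352938 in mm10), stood at 0.33 and 0.16 TPM. These levels rested on 9 and 4 expected counts, with exact Poisson 95% intervals of 4.12 to 17.1 and 1.09 to 10.2 that cover counting error only. Its partners Ccnb1 (0.62 and 0.54 TPM), Ccnb2 (0.47 and 0.57 TPM) and Ccna2 (0.57 and 0.59 TPM) were also below 1 TPM in both libraries. Ccna2 had a mean of 1.01 TPM in kallisto, and it shares 510 exon bases with Exosc9 on the other strand (18.0 and 16.9 TPM). Ccnb3, a cyclin known from meiosis, had 0 and 1 counts, and a count of 0 allows up to 3 counts by a one-sided 95% limit (at this depth 0.0979 counts-per-million). Of the 11 mitotic genes 3 reached a mean of 1 TPM in RSEM, and together the 11 summed to 7.55 and 7.56 TPM. In kallisto, where TPM ran higher, Aurkb (mean 2.57 TPM), Plk1 (1.62 TPM), Aurka (1.55 TPM) and Birc5 (1.03 TPM) also reached 1 TPM.

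Plk4, which starts centriole duplication, led the 11 mitotic genes in RSEM at 1.54 and 1.24 TPM. Top2a, the topoisomerase that untangles replicated chromosomes, followed at 1.07 and 1.61 TPM and the spindle checkpoint gene Bub1b at 0.87 and 1.19 TPM. The proliferation antigen Mki67 stood at 0.56 and 0.52 TPM, from 116 and 126 counts on a long transcript. Below it came Birc5, a subunit of the chromosomal passenger complex (0.54 and 0.35 TPM), Aurkb, the kinase of that complex (0.36 and 0.27 TPM), and the checkpoint kinase Bub1 (0.23 and 0.15 TPM). Aurkc, the Aurora kinase of germ cells, had 0.05 and 0.03 TPM. Neighbours in this order mostly overlapped between the replicates: Plk1, Aurka, Bub1b and Top2a all lay between 0.81 and 1.61 TPM. Cdc20, the mitotic activator of the anaphase-promoting complex, was at 0.62 and 0.48 TPM. It shares 53 exon bases with Elovl1 on the other strand, which stood at 12.6 and 12.3 TPM.

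Genes on a list of mainly spindle and kinetochore genes, which the naming rule does not cover, were low as well. Of these 19 genes 5 reached 1 TPM, and the median of the 19 was 0.60 TPM. The highest was Bub3, a checkpoint protein that also binds other complexes, at 24.6 and 27.2 TPM. Incenp, the scaffold of the passenger complex, followed at 6.31 and 5.15 TPM. Ccnb1ip1, which is not itself a spindle or kinetochore gene, was lowest at 0.18 and 0.16 TPM, from 1.31 and 1.31 expected counts. In a list of checkpoint kinases, CKS proteins, Trp53 and the p53 ligase gene Mdm2, 7 of 10 genes reached 1 TPM. Mdm2 (24.5 and 22.7 TPM) and Trp53 (12.7 and 11.9 TPM), neither of them a kinase, were highest. Of the kinases in the list Atm was highest at 8.94 and 7.61 TPM, and the DNA damage kinase Chek2 was lowest at 0.53 and 0.81 TPM.

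Of 13 replication genes 11 stood at or above 1 TPM. Pcna, the sliding clamp of DNA polymerases, which also serves DNA repair, stood at 20.2 and 22.4 TPM (21.3 ± 1.57, SD, n = 2) and exceeded 77.1% of protein-coding genes. Its expected counts, 577 and 752, carried a posterior SD from read sharing of 0.928% of the count. Next came subunits of the MCM helicase, Mcm7 at 8.20 and 5.84 TPM and Mcm6 at 7.44 and 6.91 TPM, and the origin-firing kinase gene Cdc7 at 6.32 and 4.56 TPM. Mcm7 and Mcm6 held 28.8% ± 4.51 and 29.7% ± 0.908 of the TPM of the 6 subunits of the helicase (SD, n = 2). The smallest share was that of Mcm3, at 6.18% ± 0.483. The subunits form a complex of equal parts, and their RNA spanned 1.67 to 8.20 TPM in replicate 1 and 1.33 to 6.91 TPM in replicate 2.

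Factors that load or activate that helicase covered a wide range. Cdc45, a helicase cofactor, had 0.71 and 1.34 TPM, and Mcm10 had 0.46 and 0.51 TPM. Cdc6, which loads the helicase, had 0.40 and 0.13 TPM from 14 and 11 counts. Of 23 further replication origin and fork genes 15 reached 1 TPM, and their ends were far apart: Orc4 (32.2 and 27.4 TPM) and Orc3 (25.9 and 21.3 TPM) were highest and Orc1 lowest at 0.02 and 0.03 TPM, although all 3 encode subunits of the origin recognition complex. Mcm8 and Mcm9, which act together in recombination, stood at 1.71 and 1.26 TPM and at 2.47 and 2.29 TPM. Mcm9 shares 1748 exon bases with Asf1a on the other strand (8.13 and 9.69 TPM), Mcm7 shares 321 with Ap4m1 and 64 with Cops6, and Cdc45 shares 209 with Ufd1 (43.1 and 39.5 TPM). The sources used here do not say if the counting used the strand, so reads in these stretches could belong to either gene.

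Promoters of 5 members are printed because the core and the functions outside division differed in short words known from cell cycle promoters. Windows run from 250 bases before to 50 bases after a gene's start, from RefSeq on GRCm38.p6, in the direction of the gene. Capitals mark matches: E2F words (TTTCCCGC, TTTCGCGC, TTTGCCGC or TTTGGCGC), the cell cycle gene homology region or CHR word TTTGAA, and CCAAT boxes, each searched on both strands.
Cdk1 (chr10:69352863-69353162, minus strand): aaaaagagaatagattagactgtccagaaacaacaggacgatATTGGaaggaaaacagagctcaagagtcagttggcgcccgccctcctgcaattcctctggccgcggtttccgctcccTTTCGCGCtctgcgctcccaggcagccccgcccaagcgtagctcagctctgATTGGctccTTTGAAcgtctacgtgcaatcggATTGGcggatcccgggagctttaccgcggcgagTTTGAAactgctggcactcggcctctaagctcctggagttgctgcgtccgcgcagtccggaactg
Ccnb2 (chr9:70421505-70421804, minus strand): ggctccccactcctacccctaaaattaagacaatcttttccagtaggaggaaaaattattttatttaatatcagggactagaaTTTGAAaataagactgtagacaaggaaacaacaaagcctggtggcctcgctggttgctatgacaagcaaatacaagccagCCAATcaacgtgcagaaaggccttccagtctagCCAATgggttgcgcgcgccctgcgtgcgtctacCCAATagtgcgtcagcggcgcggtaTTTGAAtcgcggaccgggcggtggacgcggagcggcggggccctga
Mcm6 (chr1:128359656-128359955, minus strand): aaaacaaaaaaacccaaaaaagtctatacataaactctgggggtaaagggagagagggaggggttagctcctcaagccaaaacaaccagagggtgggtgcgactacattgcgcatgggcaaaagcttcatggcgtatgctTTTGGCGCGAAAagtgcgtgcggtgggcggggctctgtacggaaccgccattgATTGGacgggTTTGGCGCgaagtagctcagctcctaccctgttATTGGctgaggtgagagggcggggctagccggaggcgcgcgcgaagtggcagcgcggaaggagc
Cdk16 (chrX:20687704-20688003, plus strand): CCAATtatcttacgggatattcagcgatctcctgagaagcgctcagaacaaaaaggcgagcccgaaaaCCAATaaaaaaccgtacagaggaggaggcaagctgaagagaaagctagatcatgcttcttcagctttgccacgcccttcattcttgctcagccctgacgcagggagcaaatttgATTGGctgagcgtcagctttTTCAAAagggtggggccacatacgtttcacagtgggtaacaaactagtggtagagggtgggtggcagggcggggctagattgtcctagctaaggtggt
Cdc42 (chr4:137357710-137358009, minus strand): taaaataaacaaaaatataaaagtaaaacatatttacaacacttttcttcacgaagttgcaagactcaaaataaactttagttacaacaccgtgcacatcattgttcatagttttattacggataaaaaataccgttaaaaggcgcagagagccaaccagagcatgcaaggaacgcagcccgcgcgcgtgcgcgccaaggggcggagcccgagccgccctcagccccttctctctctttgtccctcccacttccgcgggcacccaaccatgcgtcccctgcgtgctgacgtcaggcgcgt
Cdk1 held 1 E2F word, 2 CHR words and 3 CCAAT boxes, Ccnb2 held 2 CHR words and 3 CCAAT boxes, and Mcm6 held 3 E2F words, of which 1 pair overlaps, and 2 CCAAT boxes. In Cdk1 the CHR words began 71 and 15 bases before the start. Of the functions outside division, the Cdc42 window held none of these words, and the Cdk16 window shown held 1 CHR word and 3 CCAAT boxes.

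RefSeq windows were matched by symbol for 72 of the 87 genes, 84 windows in all, because a gene can have more than 1 start. E2F words stood in 0 of 19 windows of the functions outside division, 9 of 31 core windows (29.0%) and 2.26% of all 32851 windows. CHR words stood in 2 of 19 (10.5%), 14 of 31 (45.2%) and 17.9%. At least 2 CCAAT boxes stood in 1 of 19 (5.26%), 17 of 31 (54.8%) and 11.7%. The E2F words of the core were in Cdc25a, Cdc6, Cdk1, E2f2, E2f7, Mcm3, Mcm5, Mcm6 and Mcm7, replication genes for the most part. CHR words were in Aurka, Bub1b, Ccnb2, Cdc20, Cdk1, Mki67, Plk1 and Top2a, which act in mitosis, and in Cdc45, Cdc7, E2f2, E2f8 and Mcm2, which are replication or E2F genes. The words TATAAA of a TATA box stood in 1 of 31 core windows (3.23%), against 13.6% of all windows. A match is a description of letters, not a binding site, and the base composition of the windows was not matched between sets.

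**Figure D3:**
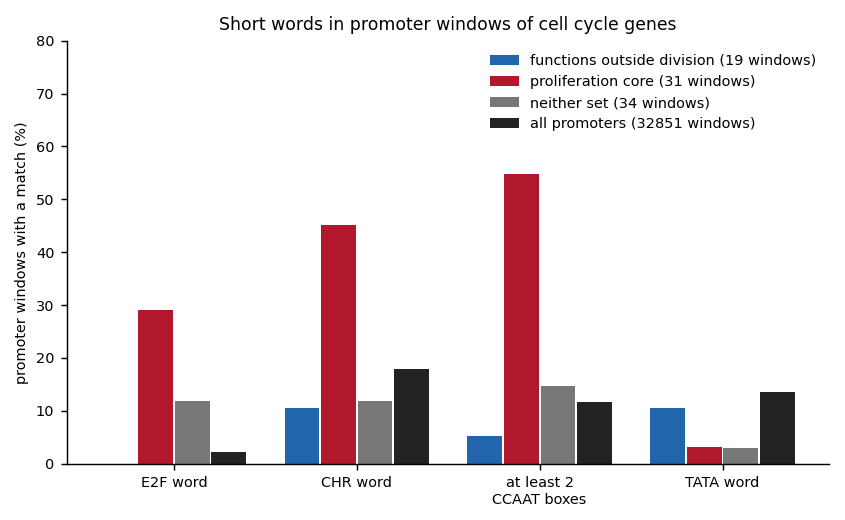
Percent of 300-base promoter windows with at least 1 E2F word, at least 1 CHR word, at least 2 CCAAT boxes or at least 1 TATA word, for the 3 sets and for all 32851 windows. Core windows stand at 29.0%, 45.2%, 54.8% and 3.23%, and all windows at 2.26%, 17.9%, 11.7% and 13.6%.

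The D-type cyclins of G1 stood well above the mitotic cyclins. Ccnd2, the cyclin of adult hippocampal progenitors and also of other brain cells, was at 63.9 and 64.1 TPM, Ccnd1 at 22.3 and 22.5 TPM and Ccnd3 at 12.9 and 14.0 TPM. Ccnd2 therefore held 64.1% ± 0.523 of D-type cyclin TPM (SD, n = 2), Ccnd1 22.5% ± 0.101 and Ccnd3 13.4% ± 0.624, an order that both libraries shared. Ccnd2 stood 103-fold and 119-fold above Ccnb1 in TPM. Ccnd1 shares 1100 exon bases with LTO1 on the other strand, which had 10.1 and 10.8 TPM. Cyclins of the next step were lower: Ccne1, which acts at the entry into replication, had 5.60 and 6.04 TPM, Ccne2 1.48 and 2.27 TPM, and Ccna1, best known from the testis, 1.33 and 0.88 TPM. Ccne2 shares 609 exon bases with Ints8 on the other strand (12.4 and 12.7 TPM). A list of 7 other cyclins, not all of those outside the naming rule, was also looked up. All 7 reached 1 TPM, against 58.9% of all protein-coding genes. Ccni was highest (115 and 122 TPM), Ccng1 next (24.7 and 26.8 TPM) and Ccno lowest (2.06 and 1.92 TPM).

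Of the CDKs that these cyclins use, Cdk4 stood at 44.1 and 53.4 TPM, Cdk6 at 2.18 and 1.93 TPM and Cdk2 at 1.69 and 1.54 TPM. Cdk4 was thus 20.2-fold and 27.7-fold above its close relative Cdk6 in TPM but 2.83-fold and 3.26-fold above it in counts. Transcripts annotated as protein-coding carried 25.4% and 20.7% of Cdk4 TPM, 11.2 and 11.1 TPM. Its leading model, Cdk4-209, is a retained-intron transcript of 468 bases with 37.8% of the gene's TPM. The transcript with the full-length reading frame of 909 coding bases, Cdk4-201, had 6.88% and 2.77%. Cdk4 shares 641 exon bases with Tspan31 on the other strand (25.6 and 27.0 TPM).

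Among CDK inhibitors, Cdkn2d (p19INK4d) and Cdkn1b (p27KIP1), both known to keep neurons out of the cycle in mice, led at 22.9 and 26.1 TPM and at 21.8 and 22.3 TPM. Together they held most of the inhibitors' TPM, 43.7% ± 1.64 for Cdkn2d and 39.5% ± 1.69 for Cdkn1b (SD, n = 2). In counts not divided by length the order turned, with 28.1% for Cdkn2d and 58.5% for Cdkn1b. Cdkn1a, the p53 target p21, had 3.04 and 3.82 TPM, and the imprinted inhibitor Cdkn1c 2.90 and 3.31 TPM. Cdkn2c stood at 1.96 and 1.68 TPM, Cdkn2b at 0.82 and 0.89 TPM and the senescence marker Cdkn2a at 0.24 and 0.05 TPM from 4 and 1 counts. Cdkn2a therefore lay at the edge of what this depth can measure.

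E2F factors covered a wide range. E2f4, which works with pocket proteins of the retinoblastoma family (14.8 and 14.8 TPM), E2f6 (12.6 and 12.3 TPM), a repressor that needs no pocket protein, and the activator E2f3 (10.9 and 11.1 TPM) were highest. E2f5 stood at 4.29 and 3.72 TPM and E2f1, the activator of replication genes, at 2.53 and 2.14 TPM. E2f7 (0.33 and 0.32 TPM) and E2f8 (0.25 and 0.21 TPM), repressors that dividing cells make in S phase, were lowest. E2f2 gave 0.25 and 1.12 TPM from 24 and 38 counts, with an effective length of 4640 bases in replicate 1 and 1384 in replicate 2. On protein-coding transcripts alone it had 0.25 and 0.28 TPM. Of 10 retinoblastoma family genes and E2F partners 9 reached 1 TPM: Rbbp4 (47.3 and 55.8 TPM) and the E2F dimer partner Tfdp1 (28.6 and 25.4 TPM) were highest, and Rbl1, the pocket protein p107, was lowest at 0.95 and 0.56 TPM.

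All 4 subunits of the anaphase-promoting complex under the naming rule exceeded 10 TPM. This ubiquitin ligase ends mitosis and, with its other activator, is also active in neurons. Cdc23 had 31.6 and 28.5 TPM, Cdc27 24.7 and 23.4 TPM, Cdc16 24.6 and 24.0 TPM and Cdc26 18.3 and 19.8 TPM, so the 4 lay within a narrow span while the mitotic activator Cdc20 was below 1 TPM. Of the 11 other genes of the complex all 11 reached 1 TPM, with a median of 28.6 TPM, Anapc5 (84.5 and 82.2 TPM) and Anapc13 (42.4 and 45.4 TPM) highest and Anapc10 (5.42 and 3.14 TPM) lowest. Of the phosphatases, Cdc25b, which activates CDK1, stood at 11.3 and 7.52 TPM, above Cdc25a at 1.84 and 2.05 TPM and Cdc25c at 0.39 and 0.47 TPM. Cdc14b had 3.07 and 2.78 TPM and Cdc14a 1.93 and 1.70 TPM.

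The highest CDKs were relatives of CDK5, which are known mainly for tasks other than driving division. Cdk16 had 107 and 109 TPM, Cdk14 had 104 and 103 TPM and Cdk17 had 74.8 and 89.7 TPM; these TAIRE-type kinases bind cyclin Y or similar partners, and Cdk16 is known for a part in neurite growth and vesicle transport. Cdk5, which phosphorylates cytoskeletal and synaptic proteins in neurons, followed at 55.6 and 58.8 TPM. Cdk18 had 10.9 and 11.4 TPM and Cdk15 0.24 and 0.12 TPM from 10 and 4 counts. Shares were taken of the TPM of the 18 CDKs under the naming rule, which does not cover every CDK. Cdk16 took 18.3% ± 0.111, Cdk14 17.6% ± 0.267, Cdk17 13.9% ± 1.68 and Cdk5 9.69% ± 0.310 (SD, n = 2). Cdk16 and Cdk14 lay close together in both libraries. Cdk5 stood 168-fold and 367-fold above Cdk1, a ratio that rests on 9 and 4 counts of Cdk1.

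Activators and partners of these kinases lay far apart. The list mixed activators and partners of CDK5 with the cyclin Y genes Ccny and Ccnyl1. Of its 9 genes all 9 reached 1 TPM and 5 reached 10 TPM, with a median of 15.9 TPM. Cdk5r2 (p39) had 107 and 112 TPM and Cdk5r1 (p35) 102 and 110.02 TPM. Lowest in RSEM was Cdk5rap2, a centrosome protein, with 3.63 and 6.45 TPM, but it had 135 and 136 TPM in kallisto. Its level therefore depended on the table. The cyclin Y gene Ccny stood at 55.8 and 55.6 TPM.

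Of the 8 transcription-linked and other CDKs, 7 stood at or above 10 TPM, with means from 4.63 to 44.0 TPM. Cdk9, the elongation kinase, had 45.2 and 42.8 TPM, Cdk10 had 40.0 and 34.9 TPM, and Cdk13, which phosphorylates RNA polymerase II, had 28.8 and 21.5 TPM. The Mediator kinases Cdk8 and Cdk19, the elongation kinase Cdk12 and Cdk7 of TFIIH lay between 13.0 and 20.8 TPM, and Cdk20 was lowest at 4.48 and 4.78 TPM. A list of cyclins of transcription CDKs, which also holds Mnat1, a gene that is not a cyclin, was at similar levels. Of its 9 genes all 9 reached 1 TPM, with a median of 18.2 TPM. Ccnl2 (38.8 and 29.9 TPM) and Ccnh (27.6 and 29.4 TPM) were highest, and Ccnq, the partner of CDK10, was lowest at 8.32 and 8.79 TPM.

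Of the Polo-like kinases, Plk2, an activity-induced kinase of synapses, held 89.4% ± 0.535 of the TPM of the 5 family members (SD, n = 2). It stood at 112 and 109.9 TPM, against 0.90 and 0.88 TPM for the mitotic Plk1. Plk5, known from brain, had 6.23 and 4.70 TPM, and the stress kinase Plk3 had 5.05 and 5.63 TPM. Among genes with CDC names but other tasks, Cdc42 led at 131 and 146 TPM and exceeded 97.5% of protein-coding genes. It was the highest of the 87 genes in RSEM, whereas in kallisto Cdk14 (209.9 and 206 TPM) stood above Cdc42 (171 and 191 TPM). The kinase chaperone Cdc37 had 61.4 and 68.3 TPM and Cdc123, an assembly factor of translation initiation, 53.7 and 63.4 TPM. The ubiquitin-conjugating enzyme Cdc34, the elongation factor subunit Cdc73 and the splicing factor Cdc40 lay between 24.5 and 33.2 TPM. Cdc34b had 0.05 and 0.19 TPM, with a posterior SD of 19.5% of the count, and Cdc20b 0 and 0.08 TPM.

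Which transcript carried the reads differed between genes. Of 33 members at or above 10 TPM, all with at least 2 annotated transcripts, 23 had a leading transcript with at least 50% of the gene's TPM. The share of all genes with such a leader was not computed. Both libraries had the same leader in 31 of the 33 members, and in 27 it was also the leader in kallisto, a quantifier whose tables were also deposited. Pcna-201 held 93.8%, Plk2-201 90.2%, Ccnd1-201 86.9% and Cdk16-201 84.3% of their genes. In kallisto these shares were 56.8%, 87.6%, 94.2% and 83.1%, so that of Pcna-201 depended on the quantifier. Cdk14 was divided, Cdk14-201 holding 31.0% and 34.2% and Cdk14-203 31.3% and 33.7%. Cdk5-201, with 876 coding bases, had 59.8% and 62.5%, and Cdk5-203, with 780, had 30.5% and 29.6%.

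Cdc42 has 2 annotated transcripts that differ in their last coding exon. Cdc42-201 ends its reading frame in the exon nearer the start (chromosome 4, 137322533 to 137322619, minus strand) and Cdc42-202 in the farther one (137321106 to 137321192). In mice the nearer exon is known as that of the brain form and the farther one as that of the form found in most tissues. Cdc42-201 held 57.8% and 59.8% of the gene's TPM and Cdc42-202 42.2% and 40.2%. In kallisto the shares of Cdc42-201 were 54.4% and 54.6%. Both forms were thus abundant, with the nearer-exon form ahead in both libraries and both tables.

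For 8 of the 87 genes under 50% of TPM lay on transcripts annotated as protein-coding. How many of all protein-coding genes fell under 50% was not counted, so these 8 have no background. The median share on such transcripts was 86.0% over the 87 genes and 92.5% over all protein-coding genes with any TPM. Besides Cdk4 the 8 genes included Cdc73 (23.0%) and Cdc123 (23.2%). Cdc73-206, a processed transcript without an annotated reading frame, held 65.6% and 64.8% of Cdc73, and Cdc73-201, which encodes the protein, 22.6% and 23.5%. In kallisto Cdc73-206 still led but held 40.0% of Cdc73. Cdc123-208, a retained-intron model of 600 bases, held 37.7% and 44.4% of Cdc123, against 23.8% and 19.3% for the coding Cdc123-201. In kallisto Cdc123-201 had 68.3% and 62.1%, so the split of Cdc123 depended on the quantifier. The others were Cdk20 (16.4%), Mcm10 (16.5%), E2f2 (38.7%), E2f6 (41.9%) and Ccne2 (47.7%). A TPM summed over all transcripts of these genes is therefore not a level of coding RNA.

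**Figure D4:**
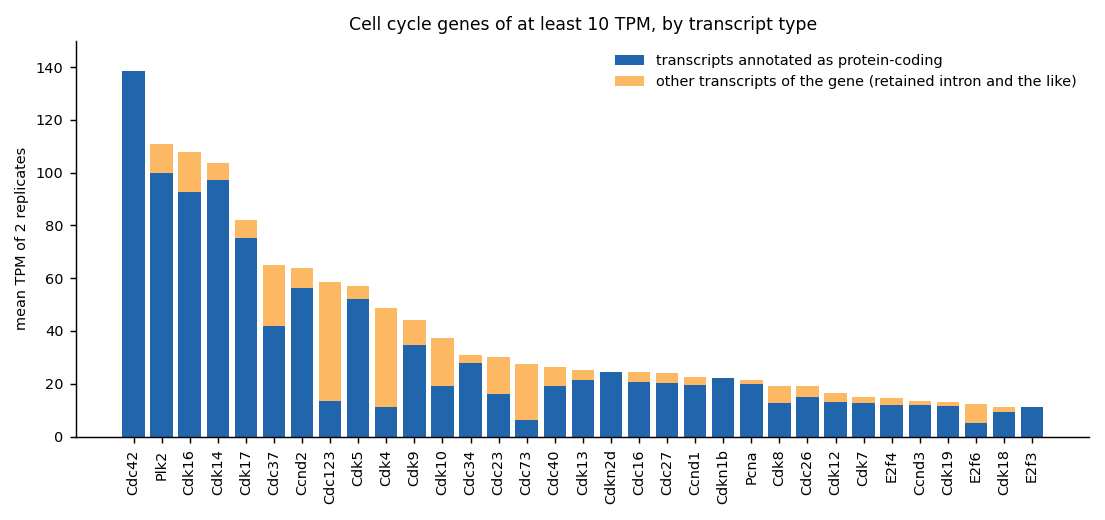
Mean TPM of the 33 genes at or above 10 TPM, highest to the left, split into transcripts annotated as protein-coding and all other transcripts of the gene. Cdk4, Cdc123 and Cdc73 have 22.8%, 23.2% and 23.0% of their TPM on protein-coding transcripts.

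The replicates lay close together, for these genes as for most genes with enough counts. On expected counts scaled by TMM, a method that aligns libraries on the bulk of genes, 54 members had a mean count of at least 100. None of the 54 was over 2-fold apart and none over 1.5-fold, against 0.778% and 2.31% of the 12719 genes with such counts. With shares this small, 54 genes cannot be set apart from the background. The largest differences were Cdc7, with 334 and 293 counts and a log2 ratio of replicate 1 over replicate 2 of 0.38, Cdkn1a (112 and 162 counts, -0.34), Cdkn1c (88 and 127 counts, -0.34) and Cdc25b (462 and 417 counts, 0.34). The median log2 ratio was -0.05 over the 54 members and -0.04 over all 12719 genes. By set it was -0.08 for 20 genes with functions outside division and -0.05 for 11 core genes.

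The other 33 members, 22 of them in the core, had mean counts under 100, and 9 of these were over 1.5-fold apart. With no count filter, 9 of 87 members stood that far apart, against 9339 of 27782 genes. Of the 9, Bub1b had 42 and 84 counts (log2 ratio -0.80), Cdc45 24 and 45 counts (-0.71) and Birc5 14 and 9 counts (0.79). In the remaining 6, Cdk1, Cdk15, Cdkn2a, Ccnb3, Cdc20b and Cdc34b, the higher library had no more than 10 counts. At such counts a ratio was not measurable at this depth. The effective length behind TPM differed over 1.5-fold between the libraries in 4 genes, all with mean counts under 100: E2f2, Cdc6, Bub1 and Cdc20b, the last with 0 counts in replicate 1.

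**Figure D5:**
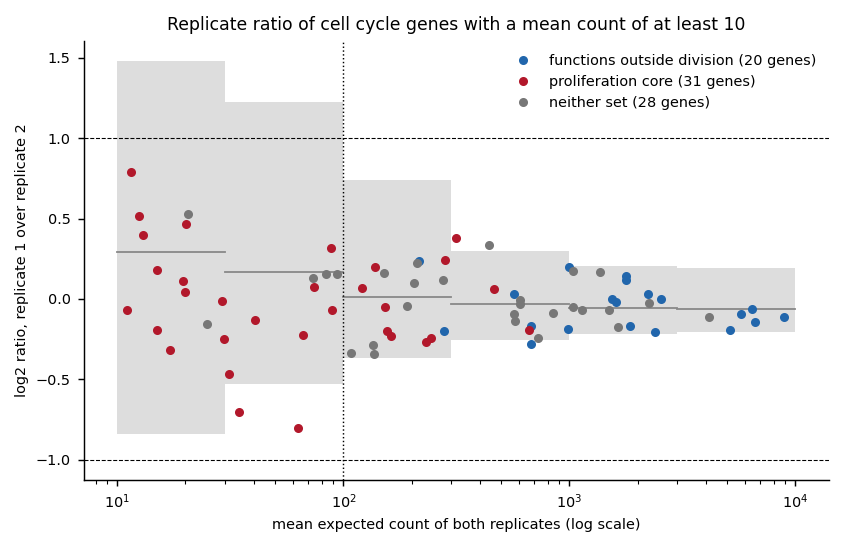
Log2 ratio of replicate 1 over replicate 2 against the mean expected count (log axis) for the 79 members with a mean count of at least 10; grey bands span the 5th to 95th percentile of all genes in 6 count ranges, with their median as a line. The dotted line marks 100 counts and dashed lines 2-fold differences; right of the dotted line the members run between -0.34 and 0.38.

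The kallisto tables gave higher TPM. The median ratio of kallisto over RSEM was 1.53 over the 63 members at or above 1 TPM and 1.57 over all protein-coding genes at that level. Of 72 members at 1 TPM or above in at least 1 quantification, 12 were over 2-fold apart, and 2 once both tables were rescaled to nuclear protein-coding genes. These 2 were Aurkb, at 2.56 and 2.57 TPM in kallisto against 0.36 and 0.27 TPM in RSEM, and E2f7, at 3.99 and 1.83 TPM against 0.33 and 0.32 TPM. For both, the low level of the whole gene therefore depended on the table. In kallisto 86.8% and 87.2% of Aurkb TPM lay on Aurkb-208, a retained-intron transcript of 462 bases with 0 TPM in RSEM. The protein-coding Aurkb-202 had 0.34 and 0 TPM in kallisto, and the protein-coding Aurkb-201 0 and 0.33 TPM.

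The other 10 fell inside 2-fold after rescaling. Those of low level in RSEM were Ccne2 (3.42 and 5.93 TPM in kallisto), Ccna1 (2.91 and 1.94 TPM), Cdc25a (4.59 and 3.73 TPM), Cdc45 (2.00 and 3.34 TPM), Mcm10 (1.14 and 1.73 TPM) and Birc5 (1.29 and 0.78 TPM). The higher ones were Mcm7 (16.4 and 13.7 TPM), Cdc73 (64.9 and 53.4 TPM), Cdc23 (71.0 and 66.6 TPM) and Cdk14 (209.9 and 206 TPM).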

How the data were processed

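Total RNA-seq was analysed from 2 hippocampus libraries of 1 group. The deposited notes name mm10 and GENCODE M21. Per the file headers, the deposited gene table and first transcript table have the columns of RSEM and the second transcript table those of kallisto. Per the file headers these give the expected count and the TPM of each gene or transcript, and the posterior SD of the count. The sources used here give no aligner and no program versions.

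Levels are means of deposited TPM, and set medians use log2(TPM + 0.1). Replicate ratios used expected counts rounded to whole numbers, TMM factors from edgeR 4.0.16 (R 4.3.3), a prior count of 0.5 and genes with a mean count of at least 100. With 1 group no test was made. The ratio step was tested on simulated data. Spike-ins and rows that name no gene stayed out. Members, roles, sets and lists were chosen with earlier results of these data known. Each replicate's values are given for the 3 highest of each role, all of small roles, members over 1.5-fold apart, those over 2-fold apart between tables, the ends of the core, and the 2 highest and the lowest of each list, with some given as ranges; other values were chosen after being seen. Alternatives covered kallisto, rescaled TPM, thresholds, pseudocount, DESeq2 1.42.0 size factors, spike-ins, deposited TPM and each replicate left out. Python 3.11.15 with pandas 2.3.3 and numpy 2.4.6 did the rest.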

Additional observations from a re-analysis of the deposited data

How the results depend on the processing

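Alternatives on protein-coding transcripts only and on rescaled kallisto tables were chosen after seeing the data. Where values moved by more than the replicate SD, the cause was not tested unless the alternative's own construction shows it. The median log2 level was 2.37 for all 87 genes, 0.82 for the core and 5.48 for the functions outside division in kallisto. With TPM rescaled over nuclear protein-coding genes it was 2.83, 1.08 and 5.95, and on protein-coding transcripts only 1.498, -0.35 and 4.26. A pseudocount of 1 gave 2.04 for all and 0.92 for the core, with a set difference of 3.91, and a minimum mean count of 10 gave 2.44 for all and 4.87 for the functions outside division. In all of these the functions outside division stayed above the core. Genes with a mean of at least 1 TPM numbered 72 in kallisto and 74 with rescaled TPM, against 63. The matching shares of all protein-coding genes were not computed. Leaving out each replicate in turn gave 61 to 63 genes at 1 TPM, 33 to 34 at 10 TPM, medians of 1.65 to 1.77, -0.14 to 0.29 and 4.72 to 4.84, a set difference of 4.43 to 4.98, a Ccnd2 share of 63.7% to 64.5%, a Cdk5 share of 9.47% to 9.91% and 22 to 24 genes with a leading transcript.

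The Ccnd2 share was 61.9% in kallisto and 65.3% in expected counts. The Cdk5 share was 8.54% in kallisto, 11.1% on protein-coding transcripts and 5.24% in expected counts, where length plays no part. With genes from 1 TPM, 42 of 63 had a leading transcript of at least 50%, against 23 of 33 from 10 TPM. Over 1.5-fold apart between the replicates was 1 of 56 members in kallisto, E2f7, against 592 of 13092 genes. At a minimum mean count of 10 it was 3 of 79 members, against 2257 of 18255 genes. With no count filter it was 9 of 87 members, against 9339 of 27782 genes. Without that filter 6 members were over 2-fold apart, against 6540 genes. Scaling to spike-ins gave a median log2 ratio of 0.15 over the members and 0.17 over all genes, against -0.05 and -0.04 under TMM. No paired analysis was possible because there was 1 group, and no replicate ratio exists without either replicate. Genes with few counts, most of the core among them, are limited by depth.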
